A study of Homo sapiens with 15 samples.

Results

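The promoters of 9 tumour suppressor genes that are often silenced by methylation in colorectal cancer (CDKN2A, MGMT, RASSF1, TIMP3, GATA4, GATA5, RUNX3, SOCS1 and CACNA1G) were read in whole-genome bisulfite libraries of HCT116, an established human colorectal carcinoma cell line. Members were the CpGs within 500 bp of every GENCODE transcript start of these genes, 1661 CpGs in 9 of 19970 protein-coding genes. Starts of 1 gene that lay more than 1000 bp apart were kept as separate promoters, which gave 20 promoters; this split was chosen after the data had been seen. The methylation level (mC) of a gene, promoter or CpG was the summed methylated reads over all summed reads of a library, in percent.

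All cells carried a stably integrated, doxycycline-inducible short hairpin RNA (shRNA), which stayed uninduced in the Baseline libraries. The shUHRF1 cells were 3 clones grown from single cells (Cl.3, Cl.6, Cl.9) and the shDNMT1 cells were 2 uncloned replicate cultures (R1, R2), so that shRNA, kind of population and deposited table cannot be told apart. Baseline libraries were taken at day 14 without doxycycline, Knockdown libraries after 14 days in 10 ng/mL doxycycline, and Recovery libraries at day 28, after 14 further days without the drug. Recovery had no Baseline library of its own day, and neither the depletion of the proteins nor the expression of the 9 genes was examined here.

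In dividing cells DNMT1 copies the methylation of the parental strand onto newly made DNA, and UHRF1, which recognises hemimethylated CpGs and ubiquitinates histone H3, brings it there. Promoters rich in CpGs (CpG islands) are unmethylated in most normal tissues, and dense methylation of an island at a transcript start goes with a silent gene in many tumours. The 9 genes act in cell cycle arrest (CDKN2A, which makes p16INK4a and p14ARF from separate first exons), DNA repair (MGMT, which removes alkyl groups from guanine), adhesion and matrix turnover (TIMP3, an inhibitor of metalloproteinases), signalling (RASSF1, a scaffold of the Hippo pathway; SOCS1, an inhibitor of JAK-STAT signalling; CACNA1G, a T-type calcium channel subunit) and gut differentiation (the zinc finger transcription factors GATA4 and GATA5, and RUNX3, an effector of TGF-beta signalling). RUNX3, SOCS1 and CACNA1G belong to marker panels for the CpG island methylator phenotype of colorectal tumours.

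The following 30-base stretches of hg38 (plus strand, CpGs in capitals) show what the methylation was read on. They were picked by CpG spacing alone, as the stretch with the most CpGs of a promoter or the one centred on its most isolated CpG, and the first 6 come from promoters that were methylated at Baseline. Only a part of the stretches picked in this way is printed. They were, in order, from chr1:24964514-24964543, chr1:24964839-24964868, chr17:50599488-50599517, chr17:50599346-50599375, chr9:21970963-21970992 and chr20:62476031-62476060.
RUNX3 distal promoter, densest: CGCGgatgaaggtCGgCGagtaggtCGgga
RUNX3 distal promoter, most isolated CpG: agaatttggattccCGgtcccacaggaatg
CACNA1G exon 17 start, densest: CGctccagcCGgaacagcctCGgcCGtgca
CACNA1G exon 17 start, most isolated CpG: ggctcccaggagacCGggtgcacatgagag
CDKN2A inner starts, densest: CGCGCGcaggtacCGtgCGacatCGCGatg
GATA5, densest: CGCGcCGcccCGgccCGccccCGcCGCGcc
Beside these stand 3 promoters that were not methylated throughout, at chr1:24929924-24929953, chr16:11255817-11255846 and chr9:21974866-21974895, which were added as a contrast after their values had been seen.
RUNX3 proximal promoter, densest: CGgcCGgCGCGggCGcctcctCGgcCGcCG
SOCS1, densest: CGgcccCGgctCGcCGcccCGCGccCGcCG
CDKN2A p16INK4a promoter, densest: CGcagcCGcCGagCGcaCGCGgtcCGcccc

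The libraries held 315707627 to 589607012 reads at CpGs, with a median of 11 to 21 reads per CpG. Over all CpGs mC was 71.7% to 76.5% at Baseline, 39.4% to 62.5% at Knockdown and 53.2% to 72.9% at Recovery. A lower level can stand for fewer cells with a methylated promoter or for fewer methylated CpGs in each cell, which these counts do not tell apart. The 95% Wilson half-width of a promoter's level ranged up to 7.25 points, and such intervals cover counting error only and are too narrow, since neighbouring CpGs share reads. The promoters of the 6 constitutively active genes GAPDH, ACTB, B2M, TBP, RPL30 and PGK1 read 0.892% to 26.4% over all libraries. Of the fixed epithelial and intestinal genes, EPCAM read 8.66%, KRT8 20.8%, KRT18 26.2%, CDX2 29.8%, CDH1 68.9%, VIL1 89.8% and CDX1 97.3% at Baseline, and the blood cell genes PTPRC, CD79A and CD3E read 89.2% to 95.8%, which says nothing of their expression.

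At Baseline, without doxycycline, 9 of the 20 promoters were methylated in every HCT116 library and the rest were unmethylated or partly methylated. Whether the genes were silenced was not examined. A gene or promoter was classed as methylated where mC was at least 85% in all 5 Baseline libraries and as unmethylated where it was below 15% in all 5. By this rule GATA4 and GATA5 were the 2 methylated genes, SOCS1 was the 1 unmethylated gene, and the other 6 were partly methylated. Of all 18999 genes tested, 15.1% were methylated, 15.7% unmethylated and 69.2% partly methylated. Split by promoter, 9 of 20 were methylated, 7 partly methylated and 4 unmethylated, against 52.2%, 29.1% and 18.7% of all 54566 promoters. The methylated ones included minor starts inside the canonical transcript. These were the inner CDKN2A starts, MGMT in intron 2, GATA4 in intron 5, and CACNA1G in exon 3 and exon 17. Of the canonical starts taken alone, only those of GATA4 and GATA5 were methylated. Results for the methylated class therefore describe starts within genes as well as main promoters.

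**Figure D1:**
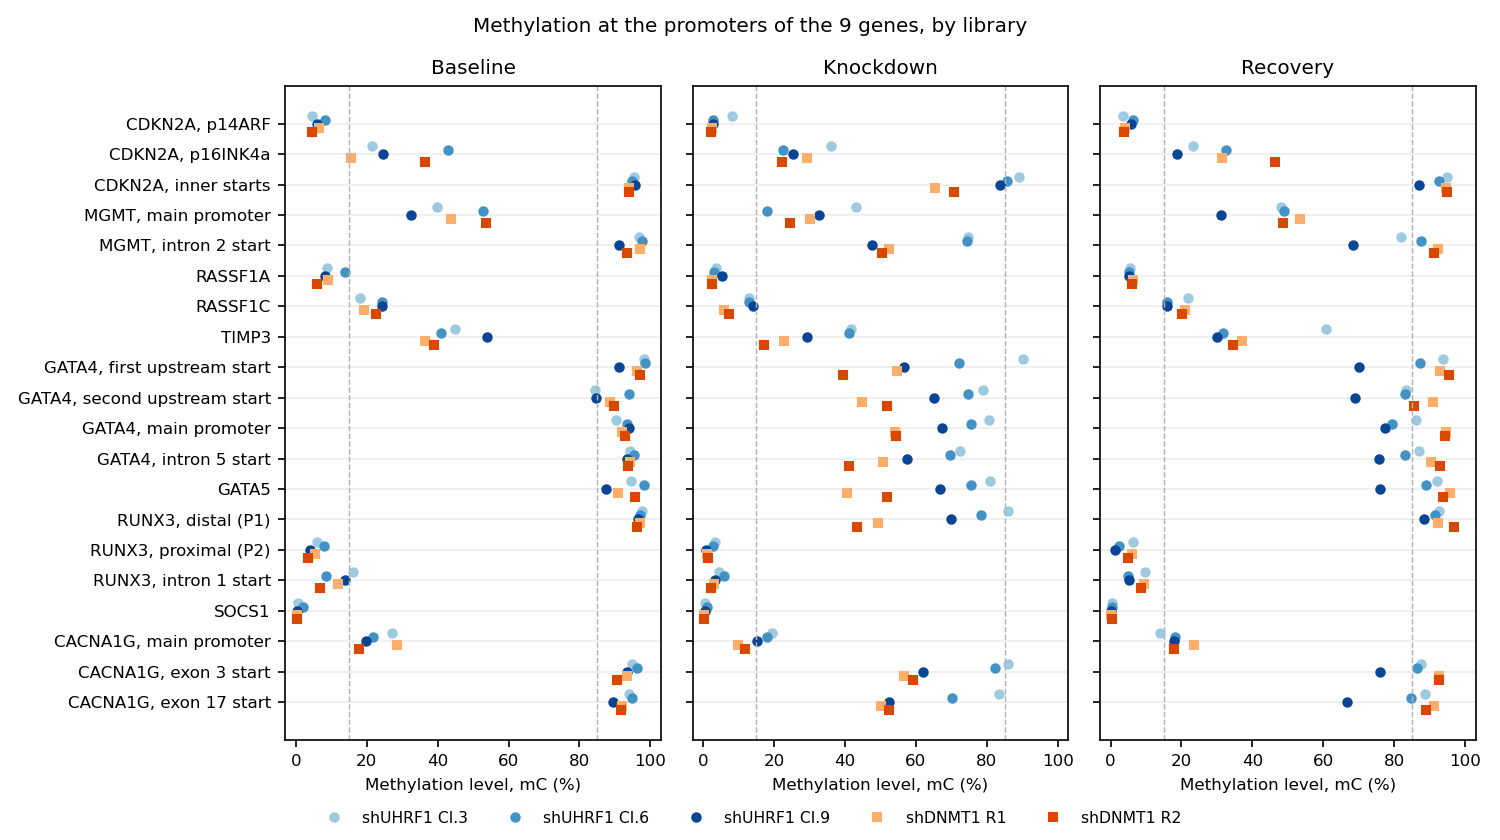
Methylation level (mC, %, x axis) of each of the 20 promoters in 5 cell populations (points, coloured by population) at Baseline, Knockdown and Recovery (panels), with dashed lines at 15% and 85%. At Baseline 9 promoters lie above 85% in every library and 4 lie below 15%, and SOCS1 stays at or below 2.10% in all panels.

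The distal RUNX3 promoter P1 had the highest Baseline mean, 96.9%, with a range of 96.2% to 97.5% over the 5 libraries. It lay at chr1:24964510-24965621, upstream of the canonical transcript, and held 45 CpGs. The proximal promoter P2, a CpG island of 136 CpGs over exon 1 at chr1:24929776-24930776, read 5.86%, 7.85%, 3.97%, 5.30% and 3.50% in Cl.3, Cl.6, Cl.9, R1 and R2. The 2 promoters of RUNX3 therefore stood at opposite ends of the scale in every library. A further start in intron 1, at chr1:24928298-24929298, read 6.83% to 16.2%.

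GATA5 (chr20:62475495-62476495, 119 CpGs over exon 1) read 94.6%, 98.2%, 87.3%, 90.9% and 95.7% at Baseline in the same order of libraries. These levels rested on few reads, 56 to 552 per library, and none of its CpGs reached 20 reads over the 5 Baseline libraries together. In its densest stretch, printed above, 4 of 5 Baseline libraries had no read at all. The 4 promoters of GATA4 on chromosome 8 read 84.3% to 98.4%, and its main promoter over exon 1, with 69 CpGs, read 90.2%, 93.4%, 94.0%, 92.1% and 93.0%. The second upstream start of GATA4 was classed as partly methylated because Cl.3 read 84.3% and Cl.9 84.6% there, just under the limit of 85%.

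CDKN2A had 1 promoter in each class. The p14ARF promoter (chr9:21993892-21995801, 171 CpGs, overlapping the antisense gene CDKN2B-AS1) read 4.41% to 8.27%. Of its CpGs, 133 lay below 15% and 38 between 15% and 85% when the Baseline reads were summed. The window of its CDKN2A-214 start alone read 9.01% to 17.4%, which was partly methylated by the rule. The p16INK4a promoter (chr9:21974327-21975366, 72 CpGs over exon 1) read 21.3%, 42.9%, 24.6%, 15.6% and 36.4%, a wider spread between libraries than at any methylated promoter. Its single CpGs were intermediate as well, since 68 of 72 lay between 15% and 85% when the reads of the 5 Baseline libraries were summed, with a median of 28.3% and quartiles of 24.4% and 31.6%. The inner starts in introns 1 and 2 (chr9:21969967-21971900, 69 CpGs) read 93.9% to 95.7%.

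MGMT and TIMP3 shared the intermediate level. The main MGMT promoter (chr10:129466690-129467762, 106 CpGs over exon 1) read 39.8%, 52.7%, 32.5%, 43.7% and 53.7%, and 67 of the 94 of its CpGs with 20 or more summed reads were intermediate. TIMP3 (chr22:32801205-32802205, 90 CpGs over exon 1, inside the gene SYN3) read 44.9%, 40.8%, 53.9%, 36.4% and 38.8%, with 69 of 84 CpGs intermediate. The start in intron 2 of MGMT (chr10:129701127-129702127), with 21 CpGs, was methylated at 91.3% to 97.6%.

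RASSF1A, the isoform known as the tumour suppressor, had a promoter (chr3:50340330-50341480, 94 CpGs) at 8.72%, 13.9%, 8.21%, 8.97% and 5.92%, and 86 of its 94 CpGs were below 15%. The RASSF1C promoter (chr3:50336964-50338788, 150 CpGs) read 18.2% to 24.3%, and there 102 CpGs were low and 31 were above 85%. The main CACNA1G promoter (chr17:50560215-50561960, 173 CpGs) was mixed in the same way, at 17.7% to 28.4% with 66 low and 14 high of 98 CpGs. CACNA1G starts in exon 3 (chr17:50568665-50569665) and exon 17 (chr17:50599225-50600225) were methylated, at 90.6% to 96.2% and 89.3% to 94.7%. SOCS1 (chr16:11255700-11256704, 105 CpGs) read 0.698%, 2.10%, 0.344%, 0.159% and 0.249%, and its highest single CpG reached 6.06%.

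Ordered by Baseline mean, the 20 promoters fell into 4 runs whose ranges did not overlap at 3 places: below the second upstream start of GATA4 (88.2%), below RASSF1C (21.7%) and below RUNX3 P2 (5.29%). All other neighbours in that order overlapped between libraries. The methylated promoters were also the sparser ones outside GATA4 and GATA5, with 2.10 to 4.05 CpGs per 100 bp against 11.9 at GATA5 and 6.44 at the main GATA4 promoter. CpG density and Baseline class did not go together in all members, since SOCS1 held 10.4 and RUNX3 P2 13.6 CpGs per 100 bp at the opposite end.

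**Figure D2:**
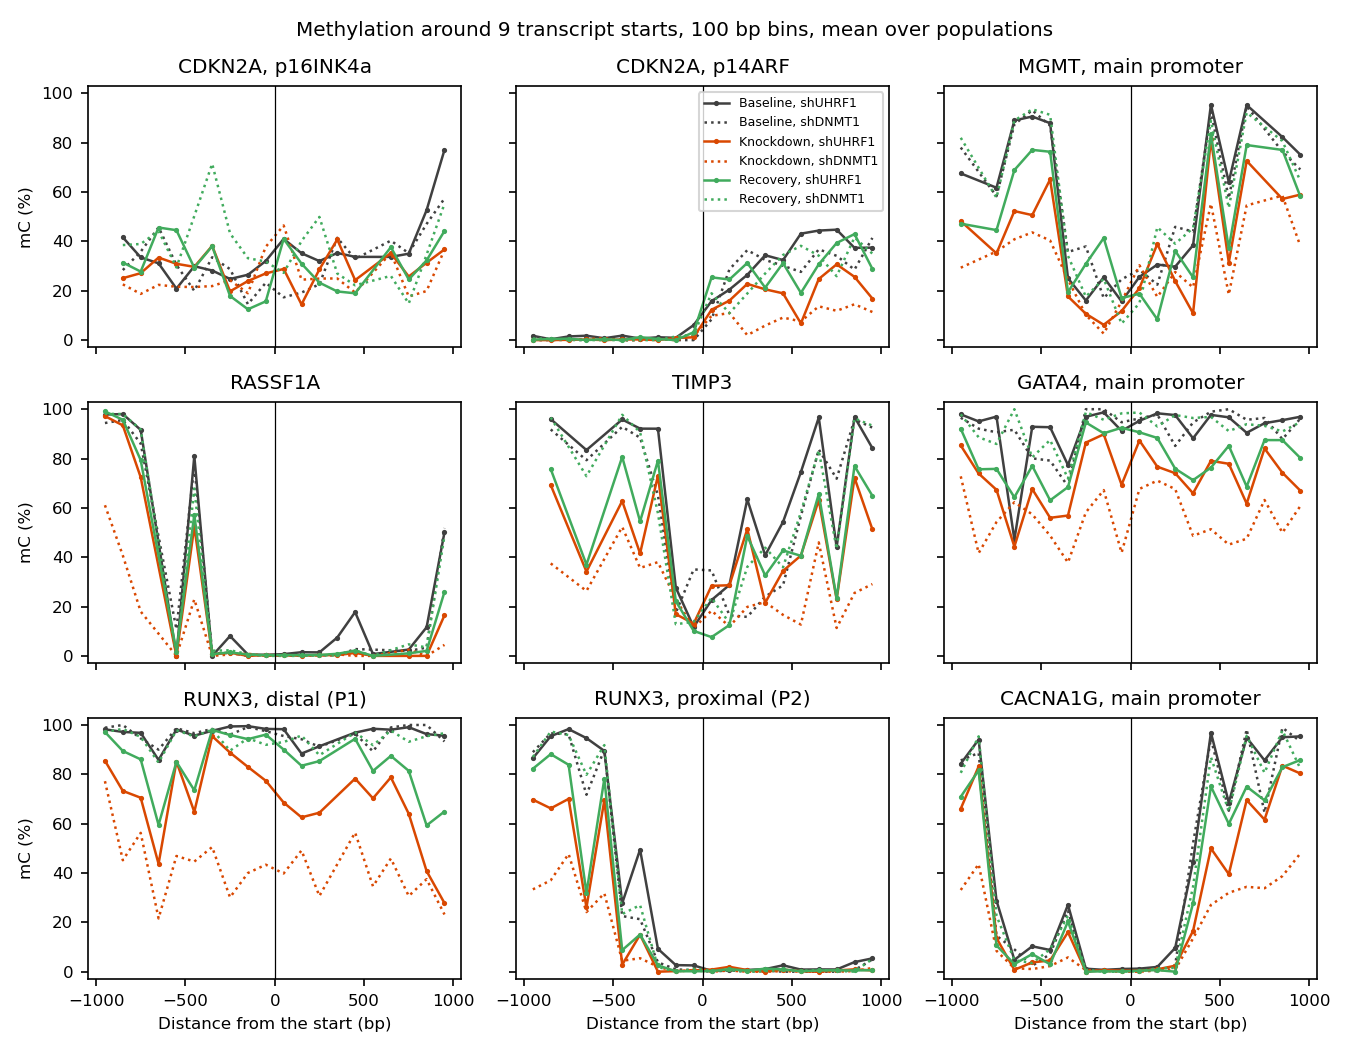
Mean mC (%, y axis) in 100 bp bins within 1000 bp of 9 transcript starts (x axis, distance in bp), by stage (colour) and by shRNA (solid line with points, 3 clones; dotted line, 2 bulk populations). RUNX3 P1 and GATA4 are methylated across the whole window at Baseline, while RASSF1A, RUNX3 P2 and CACNA1G are unmethylated at the start and methylated in the flanks, where the knockdown lines drop.

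The level also depended on the distance from the start. In the 100 bp after the main CACNA1G start, mC at Baseline was 1.24% in the clones and 0.532% in the bulk populations, and from 400 to 500 bp it was 96.9% and 94.5%. At Knockdown that outer bin read 49.96% in the clones and 27.1% in the bulk populations, and the bin at the CACNA1G start read 0.390% and 0%. Upstream of RUNX3 P2, from 800 to 700 bp before the start, mC was 98.3% and 96.2% at Baseline, 70.0% and 47.7% at Knockdown and 83.9% and 95.9% at Recovery. The low start of CACNA1G and its high flank thus entered 1 window, whereas this RUNX3 flank lay outside the 500 bp counted for P2.

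UHRF1 knockdown lowered methylation at all 9 promoters that were methylated at Baseline, and DNMT1 knockdown lowered it at the same 9 by more in points. These 9 include the starts inside transcripts that were named above. Methylated promoters were below their own Baseline in 27 of 27 promoter-clone pairs and in 18 of 18 promoter-bulk pairs. By edgeR, with the population as a block, 7 of the 9 genes were called lower at UHRF1 knockdown, where 89.3% of all 18999 genes tested were, and 8 of 9 at DNMT1 knockdown, against 92.5%. Among the separate promoters, 14 of 20 were called lower at UHRF1 knockdown (93.3% of all promoters) and 18 of 20 at DNMT1 knockdown (89.8%). The difference between the members' shares and the background was not tested. Without the population block, or with the canonical start of each gene alone, UHRF1 knockdown called 4 of the 9 genes.

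RUNX3 P1, the promoter with the highest Baseline mean, read 86.0% in Cl.3, 78.3% in Cl.6, 69.8% in Cl.9, 49.4% in R1 and 43.3% in R2 at Knockdown. At Recovery the same populations read 92.5%, 91.4%, 88.4%, 92.5% and 96.8%. Every Knockdown library lay below every Baseline and every Recovery library. The fall was 19.0 ± 7.55 points (SD, n = 3) in the clones and 50.3 ± 3.70 points (SD, n = 2) in the bulk populations, and edgeR called both (log2 odds change of -3.19, adjusted p = 1.09e-09, and of -5.03, adjusted p = 2.39e-12).

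GATA5 read 80.8%, 75.4%, 66.8%, 40.5% and 51.8% at Knockdown in Cl.3, Cl.6, Cl.9, R1 and R2, and 92.1%, 89.0%, 75.9%, 95.7% and 93.7% at Recovery. All Knockdown levels were below all Baseline levels, and Cl.9 was the one Recovery library below the Baseline range. The mean change was -19.1 ± 4.67 points (SD, n = 3) and -47.1 ± 4.67 points (SD, n = 2), and edgeR called GATA5 in both (adjusted p = 1.42e-05 and 3.20e-09). The stages were not read on all the same CpGs. In the densest GATA5 stretch Cl.3, R1 and R2 had 0 reads at Baseline but 15, 10 and 16 at Knockdown. The change over CpGs read in both libraries is not given here, so the size of the fall is uncertain. The main GATA4 promoter read 80.7%, 75.6%, 67.4%, 54.1% and 54.3% at Knockdown, and 86.1%, 79.5%, 77.5%, 94.7% and 94.2% at Recovery. There the bulk populations returned to or above the Baseline range, whereas the 3 clones stayed below it. Over all starts of GATA4 the fall was 21.4 ± 8.14 points (SD, n = 3) and 44.1 ± 2.44 points (SD, n = 2), called by edgeR with adjusted p = 1.38e-09 and 4.32e-12.

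MGMT's start in intron 2 read 74.8%, 74.4%, 47.5%, 52.4% and 50.3% at Knockdown, and 81.8%, 87.7%, 68.5%, 92.5% and 91.2% at Recovery. Its fall of 29.6 ± 12.3 points (SD, n = 3) was the largest mean fall among the 9 methylated promoters in the clones, and in the bulk populations it was 43.8 ± 1.04 points (SD, n = 2). CDKN2A's inner starts lay at the other end, with 89.0%, 85.6%, 83.7%, 65.3% and 70.7% at Knockdown. Their fall was 9.24 ± 2.86 points (SD, n = 3) in the clones and 26.0 ± 3.73 points (SD, n = 2) in the bulk populations, the smallest of the 9 methylated promoters in both. The CACNA1G starts in exon 3 and exon 17 fell by 18.0 ± 12.0 and 24.0 ± 13.2 points (SD, n = 3) in the clones and by 34.3 ± 3.87 and 40.4 ± 1.80 points (SD, n = 2) in the bulk populations. The clones differed in a regular way, since their Knockdown levels were in the order Cl.3, Cl.6, Cl.9 from high to low at 9 of the 9 methylated promoters. Over all CpGs of the genome they stood in the same order, at 62.5%, 57.3% and 42.8%, so the order was not particular to these promoters.

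**Figure D3:**
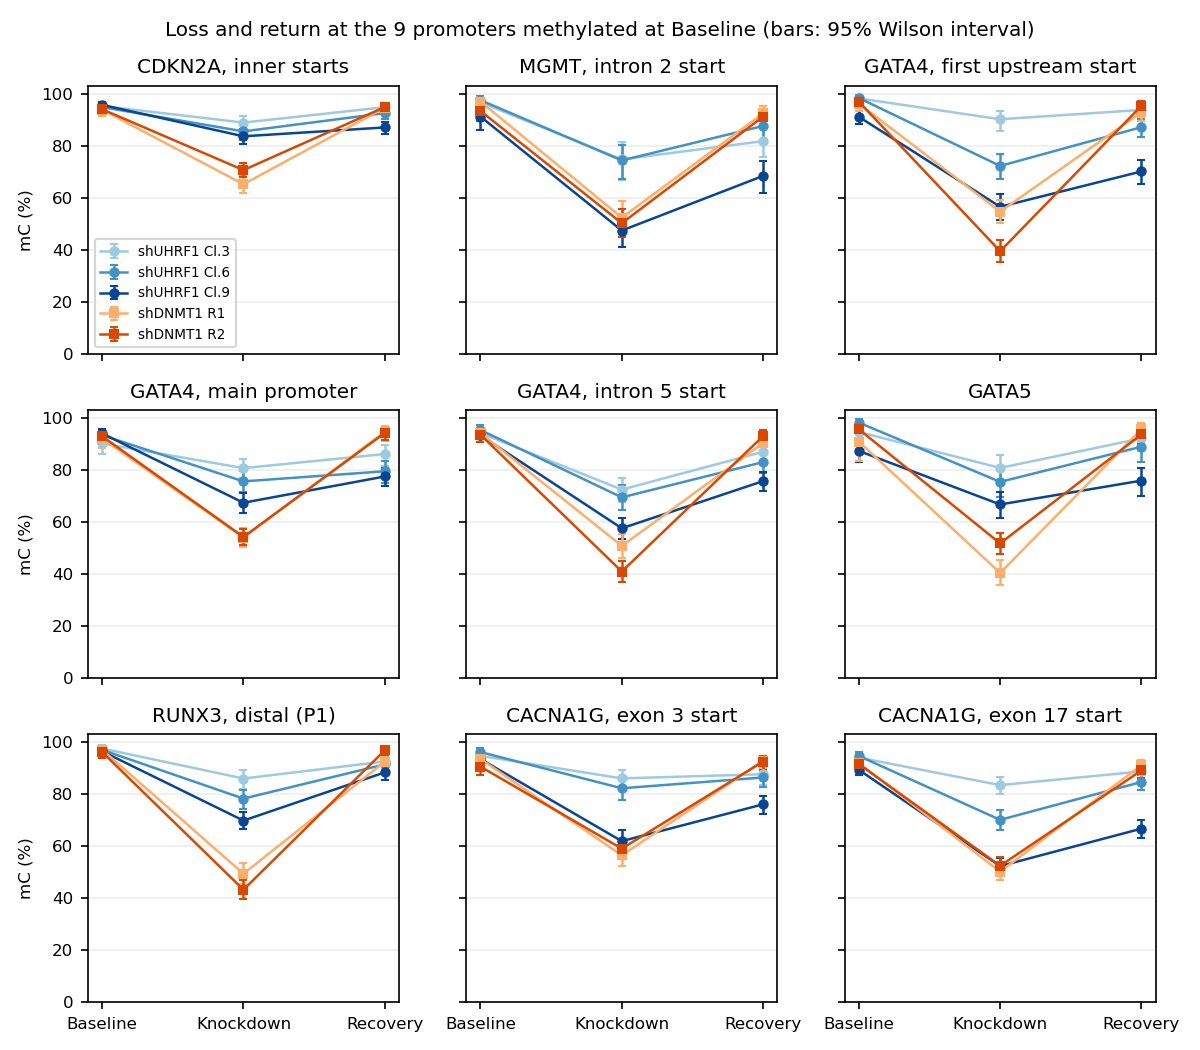
mC (%, y axis) of the 9 promoters methylated at Baseline through Baseline, Knockdown and Recovery (x axis), 1 line per population, with 95% Wilson intervals of the summed reads as bars. At RUNX3 P1 the lines of R1 and R2 drop to 49.4% and 43.3%, below those of the clones, and Cl.9 ends lowest of the clones at each promoter, for example at 75.9% for GATA5.

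Partly methylated promoters changed less in the median, and some less evenly. An exception was the second upstream start of GATA4, which fell by 14.8 ± 8.02 points (SD, n = 3) in the clones and by 40.7 ± 4.03 points (SD, n = 2) in the bulk populations (adjusted p = 0.000117 and 8.50e-09 by edgeR), more than the methylated inner starts of CDKN2A. The start in intron 1 of RUNX3 fell by 8.26 ± 5.00 points (SD, n = 3) and by 6.73 ± 3.10 points (SD, n = 2), and edgeR called both (adjusted p = 4.22e-05 and 0.000120). Of its 52 CpGs, 43 lay below 15% and 5 at 85% or above in the summed Baseline reads, with a median of 1.09%. At the p16INK4a promoter Knockdown read 36.2%, 22.5%, 25.4%, 29.3% and 22.3%, and Recovery 23.3%, 32.6%, 18.8%, 31.5% and 46.5%. Cl.3 and R1 were higher at Knockdown than at Baseline while Cl.6 and R2 were lower, so the mean change was -1.59 ± 17.8 points (SD, n = 3) in the clones and -0.230 ± 19.6 points (SD, n = 2) in the bulk populations, and edgeR called neither (adjusted p = 0.828 and 0.918). The printed p16INK4a stretch scattered likewise, between 14.0% and 60.6% over the 5 Baselines and between 1.75% and 41.2% at Recovery.

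The main MGMT promoter read 43.2%, 17.9%, 32.7%, 30.0% and 24.5% at Knockdown, and 48.2%, 49.0%, 31.2%, 53.5% and 48.7% at Recovery. Both bulk populations were below every one of their Baseline and Recovery values, whereas among the clones only Cl.6 was lower than its Baseline; over CpGs read in both libraries Cl.9 was lower too (-3.51 points). edgeR called the change at DNMT1 knockdown (-1.35 log2 odds, adjusted p = 0.00359) and did not call it at UHRF1 knockdown (-0.68, adjusted p = 0.0698). TIMP3 read 41.7%, 41.03%, 29.4%, 22.9% and 17.1% at Knockdown, and 60.9%, 31.8%, 30.1%, 37.0% and 34.5% at Recovery. Here too edgeR called the bulk populations (-17.6 ± 5.88 points, SD, n = 2, adjusted p = 0.00315) and did not call the clones (-9.18 ± 13.4 points, SD, n = 3, adjusted p = 0.0803). TIMP3 had 197 to 1038 reads per library, unevenly spread over its CpGs, and over CpGs read in both libraries of a pair the bulk change was -12.5 ± 5.90 points (SD, n = 2). Compared in that way all 3 clones were lower at TIMP3, Cl.3 with a change of -8.02 points, Cl.6 with -2.84 points and Cl.9 with -23.1 points.

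RASSF1C fell in both, to 13.0%, 12.9%, 14.0%, 5.93% and 7.12%, with adjusted p = 0.00563 in the clones and 1.14e-05 in the bulk populations by edgeR. The main CACNA1G promoter read 19.5%, 18.0%, 15.2%, 9.89% and 11.8% at Knockdown, and edgeR called the bulk populations (adjusted p = 0.00203) but not the clones (adjusted p = 0.132). Over the 7 partly methylated promoters the clones had a median change of -8.94 points and the bulk populations one of -14.4 points. All partly methylated promoters of the genome had medians of -19.3 and -31.9 points. The 2 sets were not matched for Baseline level. Baseline means of the 7 members ran from 11.4% to 88.2%, and a promoter at 21.7%, such as RASSF1C, cannot fall by 31.9 points.

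Unmethylated promoters had little to lose, and their changes were small in points. The p14ARF promoter read 7.97%, 2.83%, 2.76%, 2.46% and 2.21% at Knockdown, higher than at Baseline in Cl.3 and lower in the other 4 populations, and edgeR called the bulk populations (adjusted p = 0.0115) but not the clones (adjusted p = 0.118). RASSF1A read 3.46%, 3.08%, 5.31%, 2.50% and 2.35% at Knockdown, below every Baseline library, and edgeR called both changes (adjusted p = 0.000172 and 0.000328). Most RASSF1A CpGs were already low in the summed Baseline reads, with a median of 1.12%, and 4 of 94 were at 85% or above. RUNX3 P2 read 3.32%, 2.72%, 0.682%, 0.994% and 1.35%, and both of its changes were also called (adjusted p = 0.000144 and 0.000407). SOCS1 read 0.575%, 0.962%, 0.401%, 0.110% and 0.181%, its ranges at Baseline and Knockdown overlapped, and neither change was called (adjusted p = 0.469 and 0.722).

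Methylation came back at all 9 methylated promoters in every population, and the 2 kinds of population differed in how far. Recovery exceeded Knockdown in 27 of 27 promoter-clone pairs and in 18 of 18 promoter-bulk pairs. At the partly methylated and unmethylated promoters it did so in 15 of 21 and 6 of 12 promoter-clone pairs, where edgeR called 0 of 7 and 0 of 4 promoters higher, and in 14 of 14 and 8 of 8 promoter-bulk pairs, where it called 6 of 7 and 2 of 4. The shares called among all promoters of these classes are not given here, so whether the counts are usual for their class was not tested. In the clones edgeR called 3 of the 9 genes higher at Recovery than at Knockdown (MGMT, GATA4 and GATA5), where 29.7% of all genes were, and 7 of the 20 promoters, against 49.8%. In the bulk populations 8 of 9 genes were called, against 91.7%, and 17 of 20 promoters, against 89%. The clones' calls were fragile, since 0 of 9 genes were called without Cl.6, without the block or by limma, and of the 20 promoters 2 were called without Cl.6, 0 without the block and 4 by limma. The shares of all genes and promoters called under these settings are not given here, so this fragility is not shown to be particular to the 9 genes.

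As a share of the points lost, computed where the loss was at least 10 points, RUNX3 P1 regained 65.5 ± 7.59% (SD, n = 3) in the clones and 95.8 ± 7.73% (SD, n = 2) in the bulk populations. GATA5 regained 62.0 ± 18.8% (SD, n = 3) and 102 ± 9.80% (SD, n = 2). The main GATA4 promoter regained 29.9 ± 11.4% in the 2 clones that lost that much (SD, n = 2) and 105 ± 2.48% in the bulk populations (SD, n = 2). edgeR did not call its rise in the clones (adjusted p = 0.140), nor that of the CACNA1G start in exon 3 (adjusted p = 0.116).

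Compared with Baseline, all 9 methylated promoters were still lower at Recovery in each clone, and the bulk populations were not called different at any of the 9 genes. The methylated promoters were below Baseline in 27 of 27 promoter-clone pairs and in 11 of 18 promoter-bulk pairs. In the clones edgeR called 5 of 9 genes lower (RASSF1, GATA4, GATA5, RUNX3 and CACNA1G), where 59.3% of all genes were. Of the separate promoters it called 14 of 20, against 82.6%. A call for a gene pools all its starts. The main CACNA1G promoter alone was not called (adjusted p = 0.0914 by edgeR). The CACNA1G starts further inside the gene were called (adjusted p = 1.47e-05 and 3.51e-05 by edgeR). Likewise RASSF1A was called (adjusted p = 0.00563 by edgeR) and RASSF1C was not (adjusted p = 0.190 by edgeR). In the bulk populations edgeR called 0 of 9 genes and 0 of 20 promoters lower, against 0% of all genes and 0% of all promoters. limma also called 0 of 9 genes there, and 0 of 9 were lower at an unadjusted p under 0.05 by edgeR. The p16INK4a promoter alone was higher at that level (unadjusted p = 0.0432 by edgeR). The 5 called genes became 2 without Cl.6, 1 without Cl.9, 1 without the block and 3 by limma. With 250 bp windows 1 of 8 tested genes was called, and RASSF1 changed sign there (0.0675 log2 odds, adjusted p = 0.816 by edgeR). The 14 called promoters became 9 without Cl.6, 8 without Cl.9 and 8 without the block, where GATA5, the second upstream start of GATA4 and the inner CDKN2A starts were among those lost.

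At single promoters the remaining deficit of the clones was 6.22 ± 1.66 points (SD, n = 3) at RUNX3 P1 and 15.9 ± 6.49 points (SD, n = 3) at the start in intron 2 of MGMT, where edgeR called both (adjusted p = 0.000151 and 4.17e-06). The bulk populations differed from Baseline by -1.97 ± 3.73 and -3.35 ± 1.67 points (SD, n = 2) at these promoters. RASSF1A, RUNX3 P2 and SOCS1 were among the clone calls as well, with changes of under 10 points in each clone, but edgeR called none of the 3 without the block (adjusted p = 0.0500047, 0.102 and 0.0942), and the same CpGs of SOCS1 were not called among genes (adjusted p = 0.0729). TIMP3 read 60.9% at Recovery against 44.9% at Baseline in Cl.3, on 197 reads, and 30.1% against 53.9% in Cl.9. Over CpGs read in both libraries the direction in Cl.3 turned, and the changes were -9.09, -2.16 and -21.1 points in Cl.3, Cl.6 and Cl.9.

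The difference between the shRNAs was tested as an interaction. At Knockdown edgeR called the clones' loss smaller than the bulk populations' loss at 4 of 9 genes (RASSF1, GATA4, GATA5 and RUNX3), where 22.7% of all genes were called in that direction, and at 3 of 20 promoters (GATA5, RUNX3 P1 and the second upstream start of GATA4), against 9.78%. At Recovery it called the clones' deficit larger at 1 of 9 genes (GATA4), against 18.4%, and at 6 of 20 promoters, against 33.6%; 5 of these 6 were methylated at Baseline. Each of these counts, over genes and over promoters, became 0 when R1 or R2 was left out, which leaves 1 bulk population that is assumed to vary like the clones, and 0 without the block. The knockdown count over promoters was also 0 by limma and without Cl.3, and the recovery count over promoters was 10 without Cl.3, 2 without Cl.6 or Cl.9 and 3 by limma. The exact permutation test of the changes at 1 promoter, 3 against 2 populations, took 2 times the smaller one-sided p over 10 splits. By that definition it cannot give a p below 0.2, and RUNX3 P1, GATA5 and the main GATA4 promoter stood at that value.

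Genome-wide, Cl.9 came close to the bulk populations at Knockdown, with 42.8% of CpG reads methylated against 40.3% in R1 and 39.4% in R2. Of the 9 methylated promoters Cl.9 read above both bulk populations at 7, for example 69.8% against 49.4% and 43.3% at RUNX3 P1 and 83.7% against 65.3% and 70.7% at the inner CDKN2A starts. The 2 exceptions were the start in intron 2 of MGMT (47.5% against 52.4% and 50.3%) and the CACNA1G start in exon 17 (52.4% against 50.2% and 52.5%). This comparison of 1 clone was made after the values had been seen, has no replicate, and shows nothing particular to the 9 genes.

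CpG spacing divided the losses within the methylated promoters, most of all in the clones. Low-density CpGs, those with no other CpG within 20 bp, made up 52 CpGs or 12.4% of the 9 methylated promoters, and the remaining 369 were high-density CpGs. At Knockdown the low-density CpGs changed by -20.4, -29.3, -45.8, -46.2 and -44.1 points in Cl.3, Cl.6, Cl.9, R1 and R2. The high-density CpGs changed by -9.67, -16.9, -25.3, -39.1 and -39.7 points. Low-density CpGs thus lost more in 5 of 5 populations, by 14.6 ± 5.25 points (SD, n = 3) in the clones and by 5.76 ± 1.88 points (SD, n = 2) in the bulk populations, and the exact two-sided sign-flip p was 0.25 and 0.5, the smallest that 3 and 2 populations allow.

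At Recovery the low-density CpGs stood -9.16, -15.4 and -25.4 points from Baseline in Cl.3, Cl.6 and Cl.9, and the high-density CpGs -3.93, -6.71 and -12.9 points. In R1 and R2 the corresponding values were -2.67 and -2.02 points at low density and -0.867 and 0.523 points at high density. Single promoters were compared over the 8 methylated promoters with 3 or more low-density CpGs. At Knockdown low-density CpGs lost more in 22 of 24 promoter-clone pairs and in 12 of 16 promoter-bulk pairs, and at Recovery they stood further below Baseline in 19 of 24 and 9 of 16. The 2 clone exceptions at Knockdown were the inner CDKN2A starts in Cl.3 (-3.38 against -7.77 points) and Cl.6 (-5.99 against -10.3 points).

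**Figure D4:**
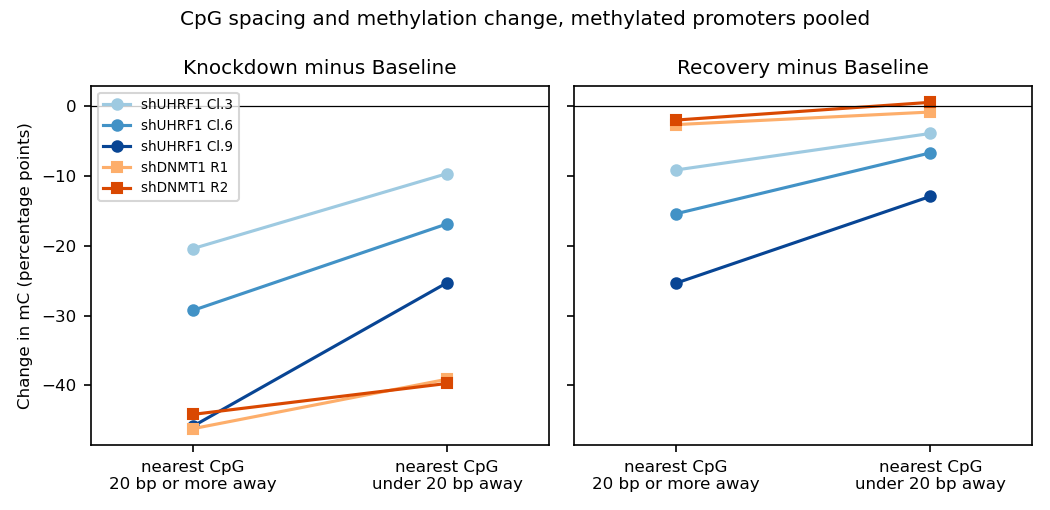
Change in mC from Baseline (percentage points, y axis) at low-density and high-density CpGs (x axis) of the 9 methylated promoters pooled, at Knockdown and Recovery (panels), 1 line per population. The clone lines rise from low to high density at both stages, for example from -45.8 to -25.3 points in Cl.9 at Knockdown, and the bulk lines are flatter.

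The stretches printed above were also read at base resolution, with few reads behind each single CpG. The isolated CpG at the CACNA1G exon 17 start read 93.3%, 100%, 90.0%, 93.8% and 93.8% at Baseline and 72.7%, 57.9%, 17.2%, 50% and 46.4% at Knockdown. The densest stretch of that promoter read 100%, 93.0%, 86.7%, 96.7% and 95.2% at Baseline and 80.0%, 74.6%, 55.2%, 54.5% and 57.0% at Knockdown. The loss was thus greater at the isolated CpG in Cl.6, Cl.9 and R2 and about equal in Cl.3 and R1, on 15 to 40 reads per library at Baseline. At RUNX3 P1 the isolated CpG, 41 bp from its neighbour, was already lower than the densest stretch in the clones at Baseline (80%, 86.7% and 66.7% against 98.0%, 96.8% and 97.5%). It read 50%, 50%, 20.0%, 45.0% and 46.2% at Knockdown on 6 to 20 reads, and the densest stretch 88.7%, 78.1%, 64.8%, 57.1% and 48.8%. The densest stretch of the inner CDKN2A starts read 100% in all 5 Baselines and still 100% in the 3 clones at Knockdown, on 8 to 18 reads, while R1 and R2 read 63.6% and 73.8%. The most isolated CpG there, which is not printed, read 100%, 100%, 95.5%, 100% and 100% at Baseline. At Knockdown it read 84.6%, 100%, 75%, 76.5% and 81.25%, on 7 to 17 reads. It thus lost more than the densest stretch in Cl.3 and Cl.9 and less in R1 and R2. By contrast the SOCS1 and RUNX3 P2 stretches did not exceed 2.17% and 5.56% in any library.

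Counted as single CpGs, the losses gave the same picture. Highly methylated CpGs were those at 0.85 or above at Baseline, those that fell by 0.3 or more were hypomethylated, and both libraries had to hold at least 5 reads. Over the 9 genes, 41 of 231 highly methylated CpGs (17.7%) were hypomethylated in Cl.3, 87 of 293 (29.7%) in Cl.6 and 159 of 347 (45.8%) in Cl.9. In R1 it was 203 of 257 (79.0%) and in R2 231 of 307 (75.2%). All clones thus stayed below both bulk populations. SOCS1 had 0 highly methylated CpGs, and GATA5 had 1 in Cl.9 and, without enough reads, 0 in Cl.3, Cl.6, R1 and R2. These counts therefore come almost wholly from the other genes. The shares over all highly methylated CpGs within 500 bp of protein-coding starts were 17.4%, 27.4%, 52%, 78.4% and 79.6% in Cl.3, Cl.6, Cl.9, R1 and R2.

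RUNX3 P1 had shares of 6.90%, 18.4%, 28.6%, 85% and 100% in Cl.3, Cl.6, Cl.9, R1 and R2, and the inner CDKN2A starts 5.41%, 0%, 9.76%, 35.5% and 31.9%. At Recovery, hypomethylated CpGs with enough reads were back within 0.3 of Baseline in 22 of 36 cases (61.1%) in Cl.3, 44 of 82 (53.7%) in Cl.6 and 70 of 151 (46.4%) in Cl.9. In R1 and R2 it was 197 of 199 (99.0%) and 212 of 214 (99.1%). Around all protein-coding starts the clones had shares of 64.6% (Cl.3), 68% (Cl.6) and 54% (Cl.9), and the bulk populations of 98.9% (R1) and 99.1% (R2). Neighbouring CpGs share reads, so these counts are no replicates and were not tested.

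The deposited domain lists, made for each library on its own, put most starts into unmethylated regions (UMRs), low-methylated regions (LMRs), highly methylated domains (HMDs) or partially methylated domains (PMDs). Per the study's methods MethylSeekR called the UMRs, LMRs and PMDs, and HMDs were taken from the rest of the genome. Some starts lay in none of these in some libraries, such as those of RASSF1C in 4 of 5 Baselines and 5 of 5 Recoveries. The starts of p14ARF, RASSF1A, RUNX3 P2, SOCS1 and the main CACNA1G promoter lay in UMRs in all 15 libraries. RUNX3 P1 and the start in intron 2 of MGMT lay in HMDs in all 5 Baselines, in PMDs in all 5 Knockdowns (2 of them also in LMRs), and in HMDs in 4 and a PMD in 1 of the 5 Recoveries. The canonical GATA4 start lay in an HMD in 5 Baselines and 3 Recoveries, and the 2 Recoveries in which it lay in a PMD were Cl.6 and Cl.9. The inner CDKN2A starts lay in PMDs already in 5 of 5 Baselines although they read above 93%, and MGMT's main promoter and TIMP3 in PMDs and UMRs at once in 5 of 5.

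Set against the genome, the 9 genes changed by a median of -9.18 points at UHRF1 knockdown and -17.6 points at DNMT1 knockdown, and all tested genes by -11.2 and -18.9 points. At Recovery the medians against Baseline were -5.37 and 0.0408 points for the 9 genes and -5.87 and -0.576 points for all. Within the methylated class the 9 promoters changed by a median of -19.1 and -43.8 points at Knockdown, beside -20.8 and -42.3 points over all methylated promoters. At Knockdown the members with high Baseline methylation thus had medians close to those of their class, and the partly methylated members had smaller ones. Partly methylated members and all promoters of that class were not matched for Baseline level, here or at Recovery. At Recovery against Baseline the clones' median was -11.5 points for the methylated members and -9.22 points for all methylated promoters. For the partly methylated ones it was -5.61 and -12.4 points. In the bulk populations these medians were -1.60 and -0.981 points, and -0.375 and -1.06 points.

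A list of 24 other CpG island genes known to be methylated in colorectal cancer gave a wider view of the same kind of gene. Of these, 23 were called lower at each knockdown (89.3% and 92.5% of all genes), 8 were called higher after UHRF1 recovery (29.7%) and 23 after DNMT1 recovery (91.7%), and 20 were called below Baseline at UHRF1 recovery (59.3%). The 5 with the highest Baseline mC were NEUROG1, a neural transcription factor of methylator panels (95.7%), TMEFF2 (94.5%), TFPI2, a serine protease inhibitor (93.5%), the netrin receptor UNC5C (93.4%) and the oestrogen receptor ESR1 (92.3%). In the clones NEUROG1 changed by -12.3 points and in the bulk populations by -44.9 points, UNC5C by -8.47 and -28.1 points, and ESR1 by -23.1 and -37.8 points. TMEFF2 changed by -14.9 and -38.6 points and TFPI2 by -17.9 and -38.1 points.

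For the 4 members with a mean Baseline mC of at least 50%, the genes with the most similar levels were sought by the root mean square difference over the 15 libraries. They were SPON2 (1.12 points) and CCDC154 (1.17 points) for GATA4, and GIMD1 (3.09 points) and IFFO1 (3.10 points) for GATA5. For CACNA1G they were RECQL5 (2.65 points) and PLOD3 (2.69 points), and for MGMT PACS2 (4.63 points) and C5orf47 (4.70 points). The levels of GATA4 over the 15 libraries were thus matched to about 1 point by other genes.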

How the data were processed

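Whole-genome bisulfite libraries of 15 HCT116 samples were grouped by shRNA, population and stage as their titles name them. Per the study's methods the authors used a TrueMethyl kit, the Meth10X pipeline and hg38, and deposited raw counts of methylated and all reads for every CpG (3 tables, 30 columns, 29456478 positions, both strands summed). Read length, duplicate removal and the handling of variants were not given in the sources used here, and lambda conversion rates were not used. The authors also deposited domain lists, with a class label per region, made with MethylSeekR and, per the submitters' processing notes, bedtools 2.25.0. All positions used were CG in hg38.

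Members and gene lists were chosen with earlier results of these data known. The text names all 9 genes and their promoters, the 5 genes of the other list with the highest Baseline mC, and the 2 genes closest to each member of at least 50% Baseline mC. Counts within 500 bp of GENCODE release 44 starts were summed per gene, or per separate promoter, keeping those that had 5 CpGs or more and, in each library, 50 reads or more. edgeR 4.0.16 (quasi-likelihood test by glmQLFit and glmQLFTest on a modelMatrixMeth design, R 4.3.3) was fitted to 18999 genes and, apart, to 54566 promoters, each time over the 15 libraries together, blocked by population. Benjamini-Hochberg adjusted p under 0.05 was called. The alternatives were limma 3.58.1 on log2 of methylated over unmethylated reads (pseudocount of 1), no block, other windows, starts, read minimums and library sizes, each population left out, and, chosen after seeing the data, separate promoters, matched CpGs and the single-CpG summary at Baseline. Exact permutation tests over populations, as computed here, cannot go below 0.25 (3 populations), 0.5 (2) or 0.2 (3 against 2). The last is 2 times the smaller one-sided p. Figures and sums were made with Python 3.11.15, numpy 2.4.6, pandas 2.3.3, scipy 1.17.1 and matplotlib 3.10.9.

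The block was taken from the labels, where a shared name marks libraries of the same population. Deviations from the group mean correlated at 0.260 to 0.817 between stages of a clone and at 0.00243 to 0.0374 between stages of a bulk population. The populations were separate clones or cultures of 1 line. With the block, edgeR's p-values measure how far the stage changes differed between populations of the same shRNA, not how far their levels differed. That spread was estimated over clones and bulk populations together, so the p-values of the 2 bulk populations rest in part on the spread of the clones. No libraries were duplicates, since the chi-square per gene between libraries of a group was 5.95 or more. In 3 simulations of the UHRF1 knockdown comparison on 18999 genes, edgeR recovered 0% of changes of 1 log2 odds and 2% of those of 2 at the larger set spread (limma 0% and 0%), and 93% and 100% of changes of 2 and 4 at the smaller set spread (limma 88% and 99%). With the spread of the real libraries it recovered 87% and 98% (limma 76% and 97%), so a gene that was not called is not shown to be unchanged. Only a small part of the genes was changed in the simulations, whereas 89.3% were called lower at the real UHRF1 knockdown. Changes under 2 log2 odds were not simulated at the real spread. These rates therefore do not give the power for smaller changes in these data.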

Additional observations from a re-analysis of the deposited data

Results flagged for a closer look

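The knockdown change differed between shUHRF1 and shDNMT1 at 4 of the 9 genes by edgeR's interaction test, with the smaller loss in the clones each time, where 22.7% of all genes were called in that direction. The difference, shUHRF1 minus shDNMT1 on the log2 odds scale, was 0.847 at RASSF1 (adjusted p = 0.0279), 1.41 at GATA4 (adjusted p = 0.0108), 1.99 at GATA5 (adjusted p = 0.0276) and 0.741 at RUNX3 (adjusted p = 0.0433). At Recovery against Baseline the difference was -1.37 at GATA4 (adjusted p = 0.0182), where the clones kept the larger deficit (18.4% of all genes were called so). None of these 5 differences was called without R1, without R2 or without the block (adjusted p = 0.466 to 0.540 by edgeR), and limma called the knockdown difference at GATA4 alone. shRNA, clone or bulk culture and count table cannot be told apart in them.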

How the results depend on the processing

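At DNMT1 knockdown, DNMT1 recovery against Knockdown and UHRF1 knockdown, most alternatives kept the counts of called members within 1.5 times. The UHRF1 recovery and the comparison of the shRNAs were less stable, and the cause was not tested. Shares over all genes or promoters under each alternative are not given here, so these counts show nothing particular to the 9 genes. Without the replicate block, that is without pairing libraries of 1 population, edgeR called 4 of 9 genes at UHRF1 knockdown, 0 after UHRF1 recovery against Knockdown, 1 below Baseline at UHRF1 recovery, and 0 for either difference between the shRNAs; over the 20 promoters it called 0, 8, 0 and 0 for the last 4 of these, and the block changed no other count by over 1.5 times. limma called 0 genes for the UHRF1 return, 3 for the UHRF1 deficit, 1 for the knockdown difference and 0 for the recovery difference, and 4, 0 and 3 promoters for the return and the 2 differences. Windows of 250 bp, where 8 of the 9 genes could be tested, gave 4 genes at UHRF1 knockdown, 1 and 4 for the UHRF1 and DNMT1 returns, 1 for the UHRF1 deficit, and 1 and 0 for the differences. Windows of 1000 bp gave 5 genes for the UHRF1 return. The canonical start alone gave 4 genes at UHRF1 knockdown and 0 for the UHRF1 return and for the knockdown difference. The UHRF1 return was called at 1 gene with at least 5 reads per CpG in every library (6 genes tested; knockdown difference 1) and at 1 with at least 200 reads per gene (7 genes tested).

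With each population left out in turn, the counts over genes were 6 to 8 at either knockdown, 0 to 3 for the UHRF1 return (0 without Cl.6), 6 to 7 for the DNMT1 return, 1 to 6 for the UHRF1 deficit (2 without Cl.6, 1 without Cl.9), 0 to 4 for the knockdown difference (0 without R1 or R2) and 0 to 2 for the recovery difference (2 without Cl.3, 0 without Cl.9, R1 or R2). Over the promoters they were 15 to 17 at UHRF1 knockdown, 15 at DNMT1 knockdown, 2 to 8 for the UHRF1 return (2 without Cl.6), 16 to 17 for the DNMT1 return, 8 to 16 for the UHRF1 deficit (9 without Cl.6, 8 without Cl.9), 0 to 4 for the knockdown difference (0 without Cl.3, R1 or R2) and 0 to 10 for the recovery difference (10 without Cl.3, 2 without Cl.6 or Cl.9, 0 without R1 or R2). Where 1 bulk population was left, it was assumed to vary like the clones.

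The median change of the 9 genes moved with the window. At UHRF1 knockdown it was -14.3 points at 1000 bp, and -12.1 to -7.92 points with a clone left out. The DNMT1 knockdown gave -13.4 points with 250 bp windows, -28.0 with 1000 bp windows, -8.31 with the canonical start and -13.6 over matched CpGs, and -19.8 to -15.1 with a bulk population left out. At Recovery against Baseline it was -1.50 points at 250 bp in the clones (-6.95 to -3.57 with a clone left out) and -1.27 points over single CpGs in the bulk populations (-1.14 to 0.673 with 1 left out). The median difference between the shRNAs at Knockdown was 13.6 points at 1000 bp, 3.84 at the canonical start and 4.62 over matched CpGs (4.60 to 8.42 with a population left out), and at Recovery -6.28 over single CpGs, -0.881 at 250 bp, -7.12 at 1000 bp and -6.57 over matched CpGs (-7.07 to -2.19). The mean share of hypomethylated CpGs was 31.1% in the clones and 77.1% in the bulk populations; a fall of 0.2 gave 48.4% and 89.4%, a fall of 0.5 gave 15.6% and 42.8%, and leaving out a population 23.7% to 37.8% and 75.2% to 79.0%.

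At single genes 3 values changed sign and were called in the main setting or the alternative. CDKN2A did so at DNMT1 knockdown with the canonical start alone (0.0596 log2 odds, adjusted p = 0.937 by edgeR). SOCS1 did so in the UHRF1 return at 1000 bp (0.83, adjusted p = 0.0449) and RASSF1 in the UHRF1 deficit at 250 bp (0.0675, adjusted p = 0.816), both by edgeR. Of the other values at single genes or promoters, 1540 kept the call or, for changes in mC, stayed within 1 SD. A further 184 lost the call, 34 gained it and 60 moved by over 1 SD. Values called in neither setting were counted as kept even where the sign turned. An example was the knockdown difference at the SOCS1 promoter, 0.0202 log2 odds with the block and -0.0698 without it. Depth limited GATA5 (56 to 552 reads per library), TIMP3 (197 to 1038), the second upstream start of GATA4 (166 to 755) and the main MGMT promoter (357 to 1241) most. The bulk populations were 2 and no Baseline was taken on the day of Recovery. The tests of separate promoters and over matched CpGs were added after seeing the data.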
